A study of Mus musculus with 17 samples.

Results

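Interferon-stimulated genes are the genes that a cell switches on when it meets interferon. Here 44, chosen by name with earlier results of these data known, were followed in small-intestinal epithelial cells of mice at 3 ages around weaning. All 44 had a row in the deposited table of 53278 gene symbols. Of these, 39 reached 1 TPM, a length-corrected share of a library's transcripts, in at least 2 of the 17 libraries, as did 15066 genes in all. The 5 below that filter were Ifit3b, Mx1, Gbp2, Ifi27l2a and Ifi44. Gbp2 stayed at or below 0.584 TPM in every library, and the other 4 reached 1 TPM in 1 library each. The filter used neither groups nor tests. Without the day 24 libraries, however, Mx2, Oas2, Oas3, Rsad2 and Herc6 would not have passed it. Tests of these genes against day 24 are thus not independent of the filter.

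Every pup in the series was Igha -/+, of the C57BL/6 strain, from a cross of a C57BL/6 with an IgA-/- mouse. The pups therefore shared a genotype with 1 disrupted allele of the IgA heavy chain, and the groups differed in their dam. Library names begin with F in the IgA-null groups and with M in the B6-dam groups. The labels do not explain that letter, and it cannot be told apart from the dam at any age. The control group had a B6 dam. The group labelled as having no maternal IgA had an IgA -/- dam, called the IgA-null dam here, and the comparison asks what maternal IgA does to the developing epithelium. Cells were sorted as EpCAM+ CD45- Ter119- on days of life 14, 24 and 42, frozen, and made into libraries with a SMART-seq v4 low-input kit. Each group held 3 libraries, apart from the B6 dam at day 24, which held 2. Litters and individual dams are not identified in the labels, and p-values therefore describe variation among these libraries, part of which may be technical. Label dates differ between the dams at days 14 and 24 and are the same at day 42, so dam and date cannot be told apart at the first 2 ages. Dates also differ between all ages of the B6 dam and between day 14 and the later ages of the IgA-null dam, so age and date cannot be told apart there either. In bulk samples such as these, fewer expressing cells and less RNA per cell cannot be told apart.

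Type I and type III interferons act through the receptor chains Ifnar1 with Ifnar2 and Ifnlr1 with Il10rb, and the kinases Jak1 and Tyk2 then phosphorylate Stat2. Stat2 enters a complex with Irf9 that binds the interferon-stimulated response element (ISRE) in the promoters of genes such as Isg15 and Ifit1. Intestinal epithelial cells are known for their response to type III interferon, and many of the products restrict RNA viruses. Type II interferon instead acts through Ifngr1 and Ifngr2, and its targets carry the gamma-activated site (GAS).

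Promoter stretches of 6 members are shown because these genes carry the patterns reported here: Isg15, Oas3 and Ifit1bl1 had their highest means at day 24, whereas Ifit2 and, as deposited, Ifit1 and Ifit3 had theirs at day 14. Each stretch runs 5′ to 3′ along the gene's strand over the 200 bases before a RefSeq start site (GRCm38.p6), with matches to the ISRE core on either strand in capitals. The core searched was GAAA, any 2 bases, then GAAA. The stretches lie at chr4:156200819-156201018 (minus strand), chr5:120777660-120777859 (minus), chr19:34601969-34602168 (minus), chr19:34640689-34640888 (plus), chr19:34583329-34583528 (plus) and chr19:34550494-34550693 (plus).
Isg15: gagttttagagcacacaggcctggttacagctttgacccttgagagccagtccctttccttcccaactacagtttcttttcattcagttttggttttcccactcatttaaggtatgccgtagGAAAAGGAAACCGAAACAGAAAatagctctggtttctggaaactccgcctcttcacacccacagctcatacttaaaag
Oas3: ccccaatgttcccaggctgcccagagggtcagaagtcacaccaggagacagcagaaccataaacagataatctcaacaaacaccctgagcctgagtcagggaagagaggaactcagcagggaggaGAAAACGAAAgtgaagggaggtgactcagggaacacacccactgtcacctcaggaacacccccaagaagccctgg
Ifit1bl1: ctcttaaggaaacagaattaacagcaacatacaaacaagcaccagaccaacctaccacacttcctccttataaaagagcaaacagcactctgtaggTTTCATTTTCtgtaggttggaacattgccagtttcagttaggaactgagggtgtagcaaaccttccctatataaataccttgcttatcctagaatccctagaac
Ifit1: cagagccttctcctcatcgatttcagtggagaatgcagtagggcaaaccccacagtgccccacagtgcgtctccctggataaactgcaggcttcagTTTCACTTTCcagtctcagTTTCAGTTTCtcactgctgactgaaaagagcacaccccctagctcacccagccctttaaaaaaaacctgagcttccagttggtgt
Ifit3: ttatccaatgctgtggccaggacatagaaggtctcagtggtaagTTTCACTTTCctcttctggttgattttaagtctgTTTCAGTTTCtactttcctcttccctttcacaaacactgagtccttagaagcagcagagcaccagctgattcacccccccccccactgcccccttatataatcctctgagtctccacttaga
Ifit2: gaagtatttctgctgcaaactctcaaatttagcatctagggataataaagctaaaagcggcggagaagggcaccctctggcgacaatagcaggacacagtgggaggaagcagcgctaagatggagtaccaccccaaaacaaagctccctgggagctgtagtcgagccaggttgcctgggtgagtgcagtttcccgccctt

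The Isg15 stretch held 3 overlapping cores, with positions -78 to -57 counted from the start site. Oas3 held 1 core, GAAAACGAAA, at -75 to -66. Ifit1 and Ifit3 held the same pair of cores, TTTCACTTTC and TTTCAGTTTC. Ifit1bl1 held 1 core, TTTCATTTTC, at -104 to -95, the same positions as the first core of Ifit1. The Ifit2 stretch held no core. Over the whole window of 250 bases before to 50 after the start site, 33 of the 44 listed genes had a RefSeq entry, 30 of them past the filter. An ISRE core was present in 15 of these 30 (50%), against 3.60% of the 8977 genes past the filter with an entry. The GAS letters, TTC and GAA with any 3 bases between, which read the same on both strands, were present in 6 of 30 (20%) and in 8.13% of the 8977. In 1 of the 39 windows of listed genes an ISRE core and a GAS match overlapped. These are matches of letters and not binding sites.

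Library depth, recovered from the TPM values as whole reads, was 8242876 to 17637916. The authors' values sum to the same total in each library. A single gene, Gm23935, took 40.2% to 61.9% of that total and the mitochondrial genes 13.7% to 34.6%, so the remainder left for other genes varied. Each difference is therefore given as deposited and after dividing each library by a median-of-ratios size factor (0.479 to 1.81), called scaled. Differences are in log2(TPM + 1), a scale that compresses changes of weakly expressed genes. They were tested by limma over 15066 genes with Benjamini-Hochberg adjustment, and a gene is said to rise or fall where the adjusted p was under 0.05. Fits that left out a library or kept 2 groups only have no share of all genes beside their counts. Those counts therefore stand without a background. Scaling moved the median difference of all genes from -1.02 to -0.04 for day 24 against day 14 with the IgA-null dam. The dam difference had a median of 0.33 as deposited and 0.00 scaled at day 14, and of -0.38 and -0.01 at day 24. Replicate 2 of the B6 dam at day 24 stood apart: it held the highest value of all 17 libraries in 30 of the 39 members as deposited and in 36 scaled, against 4.12% and 16.8% of all genes.

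**Figure D1:**
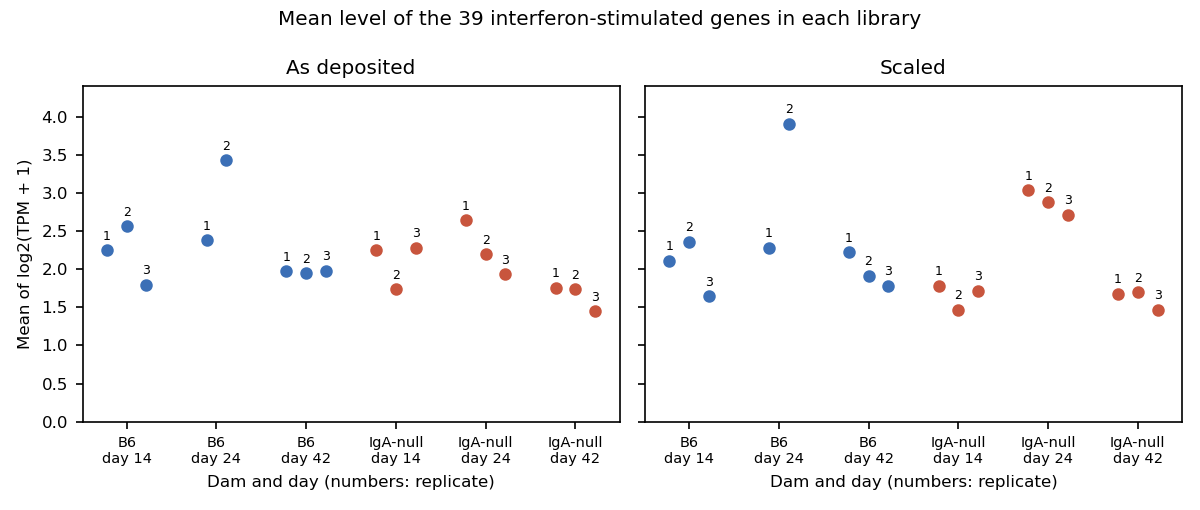
Mean of log2(TPM + 1) over the 39 interferon-stimulated genes (vertical axis) in each library, by dam and day, as deposited (left) and scaled (right), with replicate numbers above the points. Replicate 2 of the B6 dam at day 24 is highest in both panels (3.43 and 3.91), and after scaling the IgA-null libraries of day 24 (2.71 to 3.04) lie above those of days 14 and 42 with the same dam.

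Most members were expressed at a low level in the sorted epithelium. The highest mean over all libraries was that of Lgals3bp, a secreted galectin-binding glycoprotein, with 18.7 to 69.4 TPM. Next came the transcription factor Irf1, with 10.8 to 26.3 TPM, and the ubiquitin ligase Trim25, with 8.43 to 20.1 TPM. All 3 were above 1 TPM in each of the 17 libraries. At the other end, the oligoadenylate synthetase Oas2 ran from 0.0301 to 4.05 TPM, Mx2 from 0.195 to 2.57 TPM and Herc6 from 0.209 to 2.81 TPM. Rsad2 (viperin), the next by mean, ran from 0.0891 to 4.47 TPM. Oas2 rested on 2 to 7 recovered reads in each B6-dam library of day 14, so small differences in its level there were not detectable at this depth.

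Scaled means were highest at day 24 in 37 of 39 members for each dam, against 35.1% and 30.4% of all genes. As deposited the same held for 33 and 24 members, against 12.4% and 3.04% of all genes. The plot of all members by library shows this mainly in replicate 2 with the B6 dam, and the 4 Ifit genes had a scaled median difference of -0.19 from day 14 to 24 there.

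**Figure D2:**
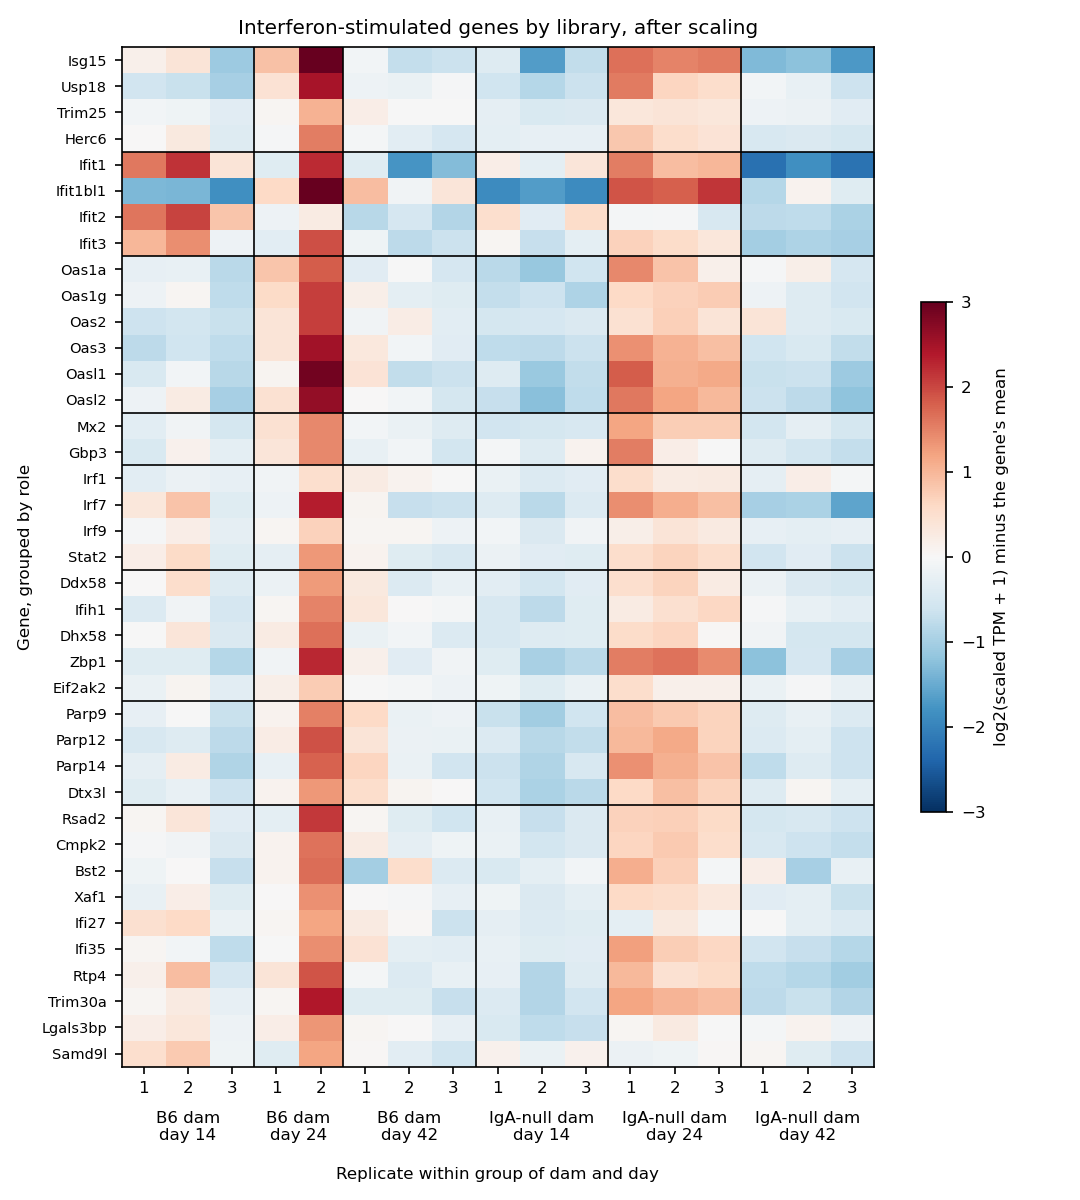
Scaled levels of the 39 members (rows, grouped by role) in 17 libraries (columns), as log2(scaled TPM + 1) minus the gene's mean over libraries, with red above and blue below that mean. The day 24 columns of the IgA-null dam and replicate 2 of the B6 dam are red in most rows, Ifit1 and Ifit2 are also red at day 14 with the B6 dam, and Ifit1bl1 is blue at day 14 with both dams.

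Between days 14 and 24 with the B6 dam, 9 of the 39 members rose and 1 fell as deposited, where 1.62% of all genes rose and 6.99% fell. Scaled, 18 rose and 1 fell, against 7.54% and 6.10% of all genes. The median difference of the members was 0.68 as deposited and 1.05 scaled, beside -0.29 and -0.00 for all genes. Every oligoadenylate synthetase tested rose scaled (6 of 6, with 4 also as deposited), as did 3 of the 4 genes of the Isg15 modifier system, 3 of 5 nucleic acid sensors and 3 of 4 ADP-ribosyltransferases with their partner. None of the 4 transcription factors Irf1, Irf7, Irf9 and Stat2 rose.

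Replicate 2 of day 24 decided most of these calls. Without it 2 members were called as deposited and 3 scaled, and without replicate 1 the counts were 24 and 35. Fitted as deposited on these 2 groups alone, 0 members passed limma. Ifit1bl1 and Oas3 kept their rise with every library of the comparison left out, in both scalings. Every other rise was lost without replicate 2 of day 24 in both scalings, while the fall of Ifit2 was lost there as deposited only (adjusted p = 0.051 by limma). The day 24 values of the members were higher in replicate 2 than in replicate 1 in 36 of 39 genes as deposited and in all 39 scaled, against 21.4% and 48.0% of all genes.

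With the IgA-null dam, 25 of 39 members rose scaled and 0 fell, against 8.12% and 8.80% of all genes. All 3 libraries of day 24 lay above all 3 of day 14 in 35 of 39 members, against 18.7% of all genes. As deposited 9 rose and 8 fell, against 0.863% and 82.9% of all genes, in a table where 95.6% of all genes were lower at day 24. The members' median was 0.15 as deposited and 1.06 scaled, beside -1.02 and -0.04 for all genes. The direction depended on the scaling in 14 members, each below 0 as deposited and above 0 scaled. Of these, 4 passed in both directions: Trim25 (-0.64 as deposited, 0.74 scaled), Irf1, the RNA-dependent kinase Eif2ak2 and Lgals3bp (-0.70 and 0.74). By role, 6 of 6 oligoadenylate synthetases, 4 of 4 ADP-ribosyltransferases with their partner, 3 of 4 genes of the modifier system, 3 of 5 sensors, 2 of 4 transcription factors and 5 of 10 other effectors rose scaled. Mitochondrial genes took 16.6%, 13.7% and 28.9% of the TPM total in the day 14 libraries and 31.5%, 33.3% and 32.9% at day 24. Erythroid markers summed to 36.3 TPM in replicate 2 of day 24, against 0.350 to 2.68 TPM in every other library of the series. Their part in the result was not tested. Leaving out single libraries gave 11 to 20 scaled rises, the fewest without replicate 2 of day 14, and 17 without replicate 2 of day 24. Ifit1bl1, Mx2, Oas1g and Oas3 kept their rise in both scalings with each library left out. Of these, Mx2 and Oas3 had passed the filter only with the day 24 libraries.

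The members that rose scaled with the 2 dams overlapped: 18 genes were on both lists, which is 100% of the B6-dam list and 72% of the IgA-null list. Among all genes 620 were on both, or 54.6% and 50.7% of the lists. Without replicate 2 of day 24 the B6-dam list held 2 members. These comparisons share no library, but they share the filter and 1 estimate of each gene's spread, so the 2 lists are not independent. The other 7 of the IgA-null list were Ifi35, Irf1, Irf7, Lgals3bp, Parp14, Rtp4 and Trim30a, named for being on 1 list only after their values were seen. Whether they differed between dams is tested below.

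Isg15, a ubiquitin-like modifier that is attached to viral and host proteins, gave 7.45, 9.43 and 2.57 TPM with the B6 dam at day 14, 12.5 and 48.8 TPM at day 24 and 4.19, 3.21 and 4.1 TPM at day 42. In the IgA-null groups it gave 6.72, 1.53 and 5.5 TPM at day 14, 14.5, 9.79 and 8.98 TPM at day 24 and 1.86, 1.96 and 1.02 TPM at day 42. Within each dam, every library of day 24 lay above every library of the other ages. Isg15 (chr4:156199424-156200818, minus strand, mm10) rose from day 14 to 24 by 1.93 (SE 0.53, adjusted p = 0.033), or 2.33 scaled (SE 0.60, adjusted p = 0.02) with the B6 dam. The rise with the IgA-null dam was 1.24 (SE 0.48, adjusted p = 0.024), or 2.50 scaled (SE 0.53, adjusted p = 0.0077). The B6-dam call was lost in 3 of 5 fits that left out a library as deposited and in 2 of 5 scaled, with limma adjusted p up to 0.53 and 0.29. The IgA-null call was lost in 2 of 6 as deposited and in 0 of 6 scaled. Usp18, the protease that removes Isg15 and blocks the type I receptor, rose by 1.92 (adjusted p = 0.0057), or 2.21 scaled (adjusted p = 0.0048) with the B6 dam. Usp18 in the IgA-null groups was at 0.74 (adjusted p = 0.06) as deposited and rose by 1.61 scaled (adjusted p = 0.015).

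Oas3, which makes the oligoadenylates that activate RNase L, gave 0.126, 0.315 and 0.161 TPM with the B6 dam at day 14, 1.65 and 6.91 TPM at day 24 and 1.08, 0.838 and 0.627 TPM at day 42. The IgA-null libraries gave 0.205, 0.164 and 0.426 TPM, then 2.84, 1.61 and 1.24 TPM, then 0.298, 0.406 and 0.141 TPM at the same ages. The B6-dam libraries of day 42 lay between those of days 14 and 24, with no overlap, while with the IgA-null dam days 14 and 42 overlapped. Oas3 (chr5:120753098-120777661, minus strand, mm10) rose to day 24 by 1.94 (SE 0.33, adjusted p = 0.0016), or 2.17 scaled (SE 0.41, adjusted p = 0.0037) with the B6 dam. The rise in the IgA-null groups was 1.16 (SE 0.30, adjusted p = 0.0019), or 1.83 scaled (SE 0.37, adjusted p = 0.0058). Oas3 would not have passed the filter without day 24, so the filter favoured both rises. Its neighbour Oas2 rose by 1.64 (adjusted p = 0.0031), or 1.85 scaled (adjusted p = 0.0048) with the B6 dam. In the IgA-null groups Oas2 was at 0.48 (adjusted p = 0.11) as deposited and rose by 1.01 scaled (adjusted p = 0.05), a call that was lost in each of the 6 fits that left out a library. Oas1a and Oas1g rose in both scalings with both dams, but 57.6% of the 50-base words of Oas1a also occur in Oas1g, so reads may have been split between them.

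Mx2, a gene of the Mx GTPase family that the GENCODE annotation lists as a polymorphic pseudogene, gave 0.456, 0.739 and 0.241 TPM with the B6 dam at day 14 and 1.5 and 2.57 TPM at day 24. The IgA-null values were 0.258, 0.294 and 0.46 TPM and 2.09, 1.04 and 0.899 TPM. The ages did not overlap with either dam. Mx2 rose by 1.03 (adjusted p = 0.011), or 1.26 scaled (adjusted p = 0.0037) with the B6 dam and by 0.78 (adjusted p = 0.0026), or 1.41 scaled (adjusted p = 0.001) with the IgA-null dam. It reached 1 TPM in 4 libraries, all of day 24, so the filter favoured these rises. Zbp1, a sensor of left-handed nucleic acid that can trigger cell death, gave 3.76, 1.64 and 2.62 TPM with the IgA-null dam at day 14, 8.2, 6.66 and 4.96 TPM at day 24 and 0.889, 2.09 and 1.13 TPM at day 42. It rose by 1.07 (adjusted p = 0.011), or 2.24 scaled (adjusted p = 0.0041) there. With the B6 dam Zbp1 was at 1.25 as deposited (adjusted p = 0.061) and rose by 1.61 scaled (adjusted p = 0.038), where replicate 1 of day 24 (3.23 TPM) was close to the libraries of day 14 (2.69, 2.78 and 1.59 TPM). Parp12, a zinc-finger ADP-ribosyltransferase, rose by 1.24 (adjusted p = 0.017), or 1.63 scaled (adjusted p = 0.0085) with the B6 dam. In the IgA-null groups Parp12 was at 0.31 (adjusted p = 0.29) as deposited and rose by 1.59 scaled (adjusted p = 0.0055).

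**Figure D3:**
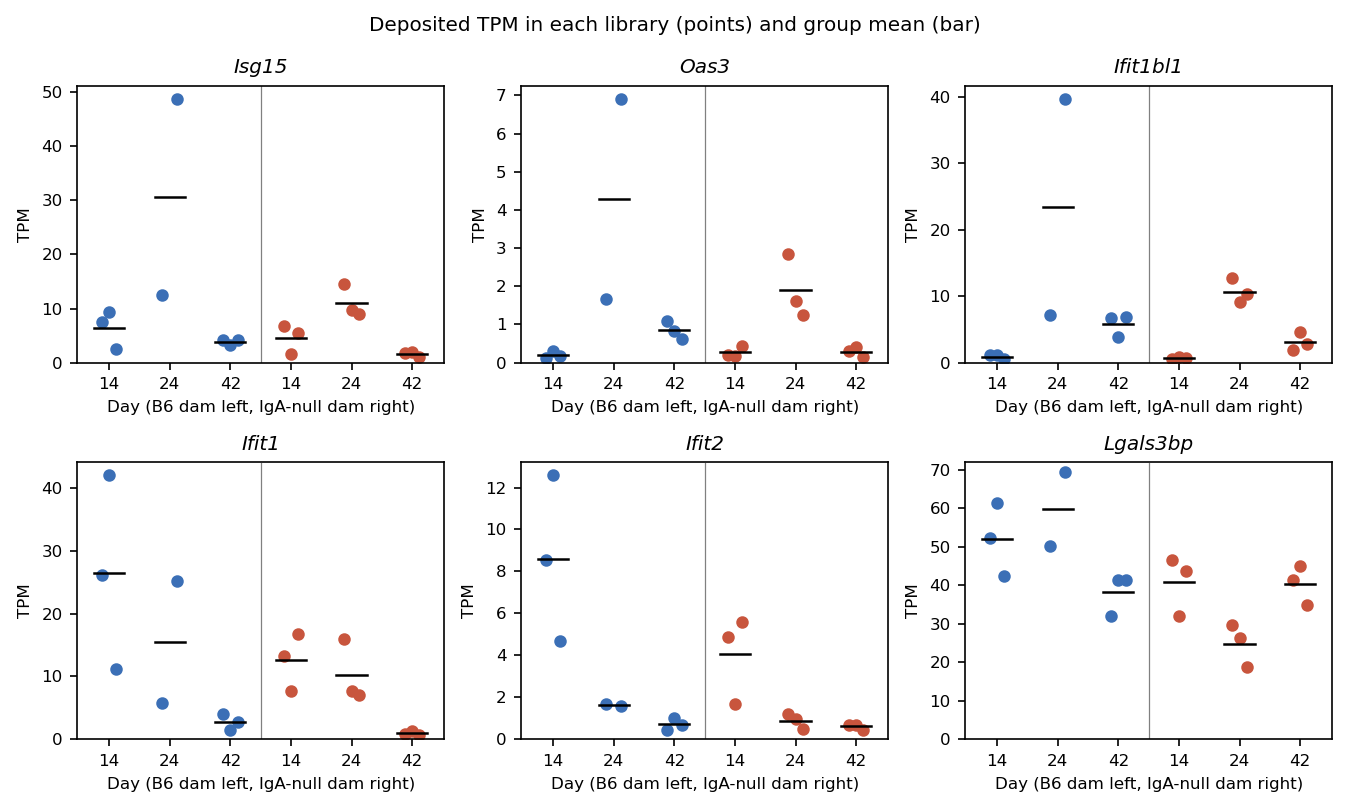
Deposited TPM of 6 members (vertical axes from 0, each with its own range) in every library, by day, with the B6 dam in blue and the IgA-null dam in red; bars are group means. Isg15, Oas3 and Ifit1bl1 are highest at day 24 with both dams, Ifit2 is highest at day 14, and Lgals3bp is above 18 TPM throughout.

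From day 24 to 42 with the IgA-null dam, 13 members fell in both scalings: Isg15, Ifit1, Ifit1bl1, Oas3, Oasl1, Oasl2, Mx2, Irf7, Zbp1, Cmpk2, Ifi35, Rtp4 and Trim30a. The counts were 13 lower and 1 higher as deposited and 14 lower and 0 higher scaled. Among all genes 0.863% fell and 48.5% rose as deposited, and 1.18% fell and 1.57% rose scaled. The member that rose as deposited was Lgals3bp, at 0.70 (adjusted p = 0.024) and -0.13 scaled (adjusted p = 0.75). Every library of day 42 lay below every library of day 24 in 33 of 39 members scaled, against 16.5% of all genes, and in 19 as deposited, against 2.26%. Median differences of the members were -0.60 as deposited and -1.11 scaled, beside 0.53 and 0.01 for all genes.

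Isg15 fell by 2.20 (SE 0.48, adjusted p = 0.0046), or 2.99 scaled (SE 0.53, adjusted p = 0.015) in that step. Zbp1 fell by 1.69 (adjusted p = 0.0041), or 2.44 scaled (adjusted p = 0.014) and Mx2 by 0.84 (adjusted p = 0.0069), or 1.33 scaled (adjusted p = 0.012). Irf7, the transcription factor that amplifies type I interferon, fell by 1.53 (adjusted p = 0.01), or 2.31 scaled (adjusted p = 0.03). The scaled count was sensitive to single libraries: it was 0 without replicate 1 of day 42, 1 without replicate 1 of day 24, and 3 to 12 without each of the others. As deposited it was 10 to 14, and Isg15, Ifit1, Ifit1bl1, Oas3, Oasl2, Mx2, Irf7, Zbp1 and Trim30a kept their fall in each of those fits. Comparisons with day 24 share the day 24 libraries, so the rise before it and the fall after it are not independent.

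With the B6 dam 0 of 39 members passed from day 24 to 42 by limma as deposited or scaled, nor did any of 37 by limma-voom on the recovered reads. Unadjusted p under 0.05 was reached by 25, 31 and 32 of them, all lower at day 42, as it was by 3.75%, 6.73% and 8.15% of all genes in either direction. After adjustment 0.0199%, 0.0265% and 0.0298% of all genes passed in these fits. The day 42 libraries lay below both day 24 libraries in 29 members as deposited and 16 scaled, against 2.04% and 8.20% of all genes. Member medians were -0.96 as deposited and -1.16 scaled, beside 0.12 and -0.01 for all genes. Isg15 was at -2.43 (adjusted p = 0.36), or -2.62 scaled (adjusted p = 0.28) and Mx2 at -1.01 (adjusted p = 0.46), or -1.16 scaled (adjusted p = 0.24). Without replicate 1 of day 24, 7 members fell as deposited and 34 scaled, and without replicate 2 the counts were 0 and 0.

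**Figure D4:**
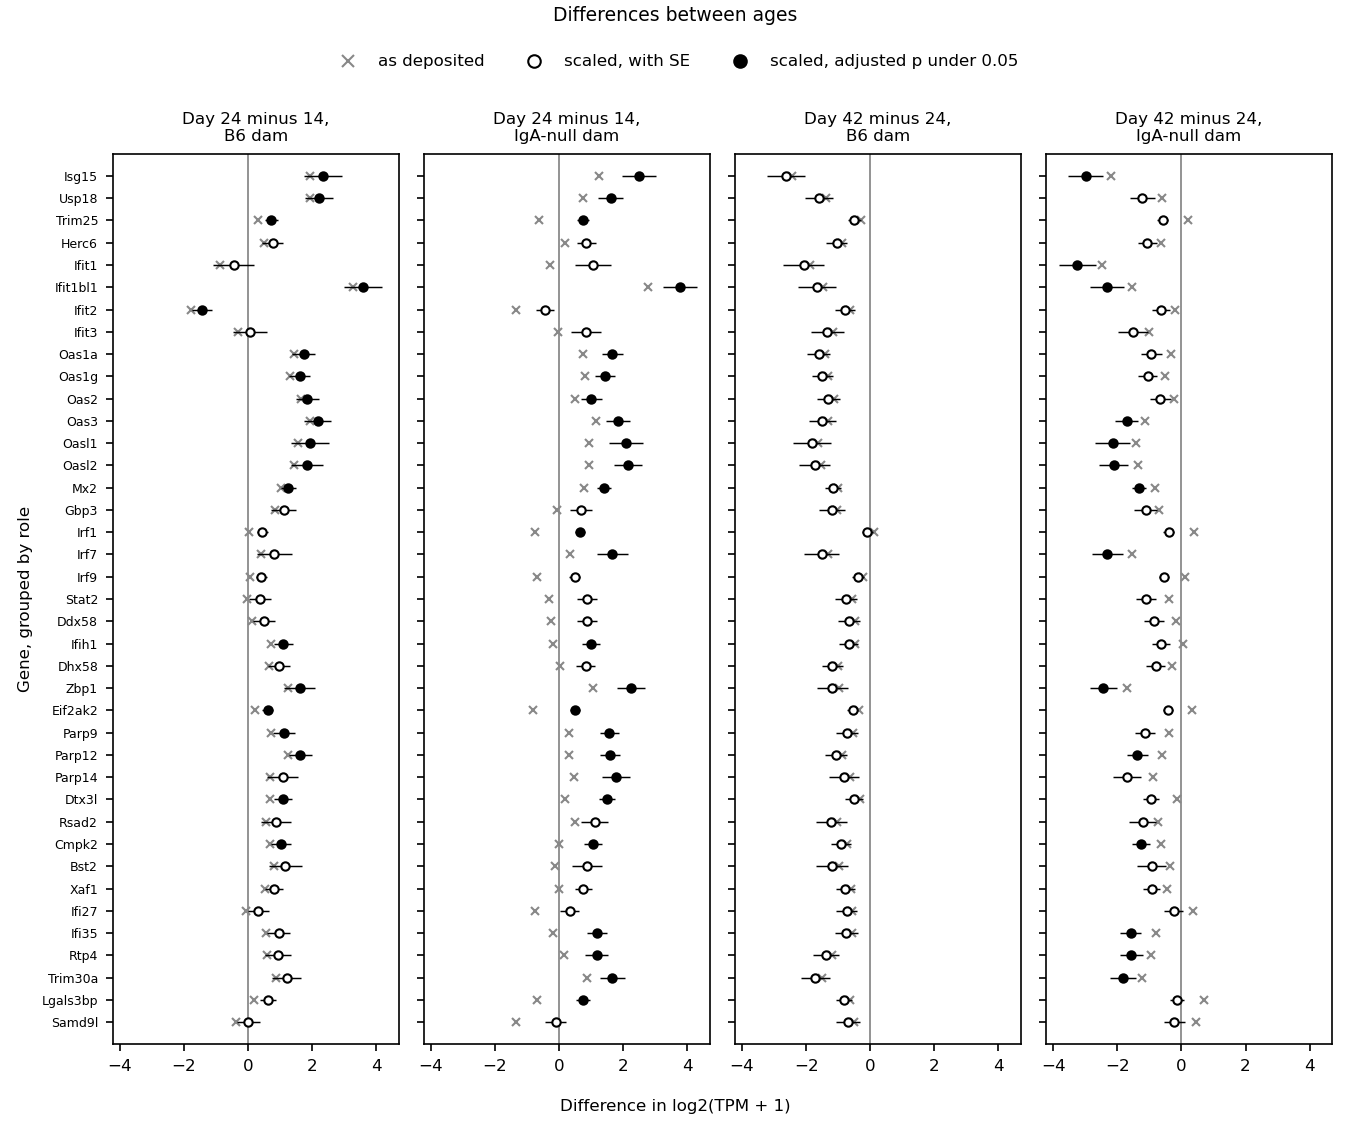
Difference in log2(TPM + 1) between ages (horizontal axis) for each of the 39 members (rows), from day 14 to 24 and from day 24 to 42 with each dam; crosses are as deposited, circles scaled with their SE, and filled circles passed at an adjusted p under 0.05. In the 14 to 24 panels 18 and 25 members are filled to the right of 0, and in the 24 to 42 panel of the IgA-null dam 14 are filled to the left.

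The Ifit genes lie together on chromosome 19 and did not follow 1 course. Within chr19:34550694-34650009 (mm10) stand Ifit2, Ifit3, Ifit1bl1, Ifit3b and Ifit1 in that order, with Ifit1bl1 alone on the minus strand. The Ifit1 protein binds viral RNA that lacks the host's cap methylation and holds back its translation. Ifit1 gave 26.1, 42 and 11.2 TPM with the B6 dam at day 14, 5.68 and 25.1 TPM at day 24 and 4.06, 1.39 and 2.76 TPM at day 42. For the IgA-null dam the values were 13.3, 7.6 and 16.8 TPM, 15.9, 7.71 and 7.1 TPM and 0.753, 1.3 and 0.715 TPM. As deposited the libraries of day 42 were the lowest with both dams, with no overlap with either earlier age. Scaled this held with the IgA-null dam, whereas with the B6 dam replicate 1 of day 42 (5.22 scaled TPM) was just above replicate 1 of day 24 (5.20).

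From day 14 to 42 Ifit1 fell by 2.76 (SE 0.50, adjusted p = 0.0018), or 2.52 scaled (SE 0.57, adjusted p = 0.0088) with the B6 dam. Its fall in the IgA-null groups was 2.77 (SE 0.50, adjusted p = 0.0011), or 2.18 scaled (SE 0.57, adjusted p = 0.02). Ifit2 gave 8.55, 12.6 and 4.7 TPM with the B6 dam at day 14, 1.67 and 1.6 TPM at day 24 and 0.453, 1.02 and 0.653 TPM at day 42. Ifit2 in the IgA-null groups gave 4.86, 1.67 and 5.58 TPM, 1.21, 0.943 and 0.481 TPM and 0.689, 0.681 and 0.437 TPM. As deposited all day 14 libraries were above all later ones with the same dam. Scaled this held with the B6 dam, whereas replicate 2 of the IgA-null dam at day 14 (1.21 scaled TPM) was below replicates 1 and 2 of day 24 (1.69 and 1.73).

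Ifit2 fell already by day 24 with the B6 dam, by 1.78 (adjusted p = 0.0048), or 1.44 scaled (adjusted p = 0.0088), and by day 42 it was lower by 2.42 (adjusted p = 0.00011), or 2.22 scaled (adjusted p = 0.00012). Ifit2 also fell with the IgA-null dam from day 14 to 42 by 1.55 (adjusted p = 0.0025), or 1.07 scaled (adjusted p = 0.02). The step to day 24 was -1.34 as deposited (adjusted p = 0.0011) and -0.43 scaled (adjusted p = 0.31). Ifit3 gave 4.13, 6.18 and 1.27 TPM with the B6 dam at day 14 and 0.871, 0.348 and 0.582 TPM at day 42, and it fell as deposited by 1.46 (adjusted p = 0.036). Scaled it was at -1.27 (adjusted p = 0.094), and the deposited call was lost in 5 of 6 fits that left out a library. Ifit3 shares 51.2% of its 50-base words with Ifit3b, so its value is uncertain.

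Ifit1bl1, an Ifit1-like gene between Ifit3 and Ifit3b, went the other way. It gave 1.12, 1.14 and 0.471 TPM with the B6 dam at day 14, 7.23 and 39.7 TPM at day 24 and 6.68, 3.78 and 6.86 TPM at day 42. Its IgA-null values were 0.593, 0.806 and 0.64 TPM at day 14, 12.7, 9.06 and 10.2 TPM at day 24 and 1.93, 4.59 and 2.84 TPM at day 42. The lowest libraries were those of day 14 with both dams, and day 14 overlapped neither later age. Ifit1bl1 rose to day 24 by 3.28 (SE 0.46, adjusted p = 0.00028), or 3.59 scaled (SE 0.59, adjusted p = 0.0013) with the B6 dam, and by 2.79 (SE 0.41, adjusted p = 4.5e-05), or 3.77 scaled (SE 0.53, adjusted p = 0.00056) with the IgA-null dam. These calls held with each library of the comparison left out, in both scalings.

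At day 42 Ifit1bl1 was still above day 14 with the B6 dam, by 1.81 (adjusted p = 0.0093), or 1.92 scaled (adjusted p = 0.026). The scaled call was lost in 5 of 6 fits that left out a library, with adjusted p up to 0.098 by limma. The IgA-null difference was 1.25 as deposited (adjusted p = 0.027) and 1.44 scaled (adjusted p = 0.077). Of its 50-base words 6.45% recur elsewhere, nearly all in Ifit1bl2.

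Over the whole span from day 14 to 42, few members differed. With the B6 dam 1 was higher and 3 lower as deposited, against 2.78% and 6.33% of all genes, and 1 higher and 2 lower scaled, against 7.28% and 6.44%. The genes called in both scalings were Ifit1, Ifit2 and Ifit1bl1. In the IgA-null groups 1 was higher and 8 lower as deposited, against 1.77% and 38.9%, and 0 higher and 2 lower scaled, against 8.09% and 8.28%. Ifit1 and Ifit2 were the genes called in both scalings there, and their scaled calls were lost in 4 and 5 of 6 fits that left out a library, with limma adjusted p up to 0.068 and 0.085. Scaled member medians were 0.07 for the B6 dam and 0.02 for the IgA-null dam, beside -0.01 and -0.02 for all genes.

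At day 14 the dams were compared between 3 and 3 libraries. No member passed as deposited by limma (1 at an unadjusted p under 0.05, against 32.0% of all genes), where 8.68% of all genes did. Scaled, Ifit2 alone was lower with the IgA-null dam, against 1.02% of all genes, at -0.95 as deposited (adjusted p = 0.069) and -1.25 scaled (SE 0.28, adjusted p = 0.034). Limma-voom gave the same single call, against 1.08% of all genes lower. The scaled call was lost in 5 of the 6 fits that left out a library, with adjusted p up to 0.13. Ifit1 was at -0.90 (adjusted p = 0.21), or -1.29 scaled (adjusted p = 0.24) and Ifit3 at -0.86 (adjusted p = 0.16), or -1.05 scaled (adjusted p = 0.24). Fitted scaled differences were below 0 in 36 of 39 members, against 49.6% of all genes, with a median of -0.37. As deposited 20 of 39 were below 0, against 13.5% of all genes. Scaled, the dams did not overlap in 6 members that were lower with the IgA-null dam, against 13.8% of all genes.

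Csf1r, the macrophage growth factor receptor, was among 4 macrophage and dendritic cell markers that passed the filter. It gave 3.91, 7.62 and 1.4 TPM with the B6 dam and 0.446, 0.435 and 0.787 TPM with the IgA-null dam at day 14, and at most 0.101 TPM in every later library. Its dam difference at day 14 was -1.59 (adjusted p = 0.0079), or -1.62 scaled (adjusted p = 0.014). Csf1r passed the filter only through the B6-dam libraries of day 14, so this test is not independent of the filter. The other 3 did not pass: Cd68 was at 0.31 (adjusted p = 0.32), or 0.00 scaled (adjusted p = 1), Itgam at 0.22 (adjusted p = 0.43), or 0.08 scaled (adjusted p = 0.78) and Cd14 at -0.02 (adjusted p = 0.95), or -0.14 scaled (adjusted p = 0.78). Within the B6 dam at day 14, replicate 2 was highest in 36 of 39 members as deposited and 33 scaled, against 43.2% and 37.2% of all genes. Replicate 3 was lowest in 36 in both scalings, against 35.2% and 36.3%. The 15 macrophage and dendritic cell markers, Csf1r among them, summed to 7.52, 10.8 and 4.17 TPM with the B6 dam at day 14. With the IgA-null dam they summed to 3.19, 5.08 and 6.61 TPM. Csf1r made up 3.91, 7.62 and 1.4 TPM of the B6-dam sums and 0.446, 0.435 and 0.787 TPM of the others. The sums are therefore not separate from Csf1r. The part of such cells in the Ifit differences was not tested.

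At day 24 no member passed in any of limma as deposited (16 at an unadjusted p under 0.05), limma scaled (1) or limma-voom (1 of 37). Among all genes 30.9%, 9.58% and 9.74% had such an unadjusted p, and 0.0265% passed as deposited, 0 scaled and 0 by voom. The smallest p was that of Lgals3bp, which gave 50.3 and 69.4 TPM with the B6 dam and 29.6, 26.2 and 18.7 TPM with the IgA-null dam, at -1.24 (SE 0.26, adjusted p = 0.059), or -0.66 scaled (SE 0.25, adjusted p = 0.45). The next were Ifi27, at -1.02 (adjusted p = 0.063), or -0.64 scaled (adjusted p = 0.57), and Oas1g, at -0.96 (adjusted p = 0.069), or -0.64 scaled (adjusted p = 0.58). As deposited all 39 fitted differences were below 0, as were 88.7% of all genes, and 31 were below 0 scaled, against 53.3%. Groups did not overlap in 12 members as deposited, all lower, against 33.5% of all genes, and in 0 scaled, against 8.65%. Without replicate 1 of the IgA-null dam 8 members were lower as deposited. The share of all genes lower in that fit is not given, so the 8 stand without a background.

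Day 42 is the age at which the dates in the labels were the same for both dams. No member passed as deposited (2 at an unadjusted p under 0.05), scaled (0) or by limma-voom (0), beside 1.15%, 1.60% and 2.18% of all genes at that unadjusted p, and no gene of the whole table passed. Fitted differences were below 0 with the IgA-null dam in 36 of 39 members as deposited and in 37 scaled, against 41.0% and 50.4% of all genes. All 3 IgA-null libraries lay below all 3 B6-dam libraries in 16 members as deposited and 15 scaled, against 1.89% and 3.62% of all genes. Median differences were -0.23 and -0.28. The 3 smallest p-values belonged to Cmpk2, a mitochondrial nucleotide kinase, to Zbp1 and to Ifi35. Zbp1 gave 2.92, 2.42 and 3.66 TPM with the B6 dam and 0.889, 2.09 and 1.13 TPM with the IgA-null dam, at -0.78 (SE 0.35) as deposited and -0.81 (SE 0.42) scaled, each with a limma adjusted p of 1. Isg15 gave 4.19, 3.21 and 4.1 TPM and 1.86, 1.96 and 1.02 TPM, without overlap, at -0.90 (SE 0.48) and -0.95 (SE 0.53). Replicate 3 of the IgA-null dam was the lowest of its group in 32 of 39 members as deposited and 28 scaled, against 53.9% and 34.1% of all genes. Replicate 1 of the B6 dam was the highest of its group in 14 members as deposited and 32 scaled, against 11.68% and 39.05%. Its T cell and intraepithelial lymphocyte markers summed to 38.1 TPM, against 1.46 and 4.76 TPM in the other B6-dam libraries of day 42. The part of single libraries or of lymphocytes in the dam difference was not tested.

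**Figure D5:**
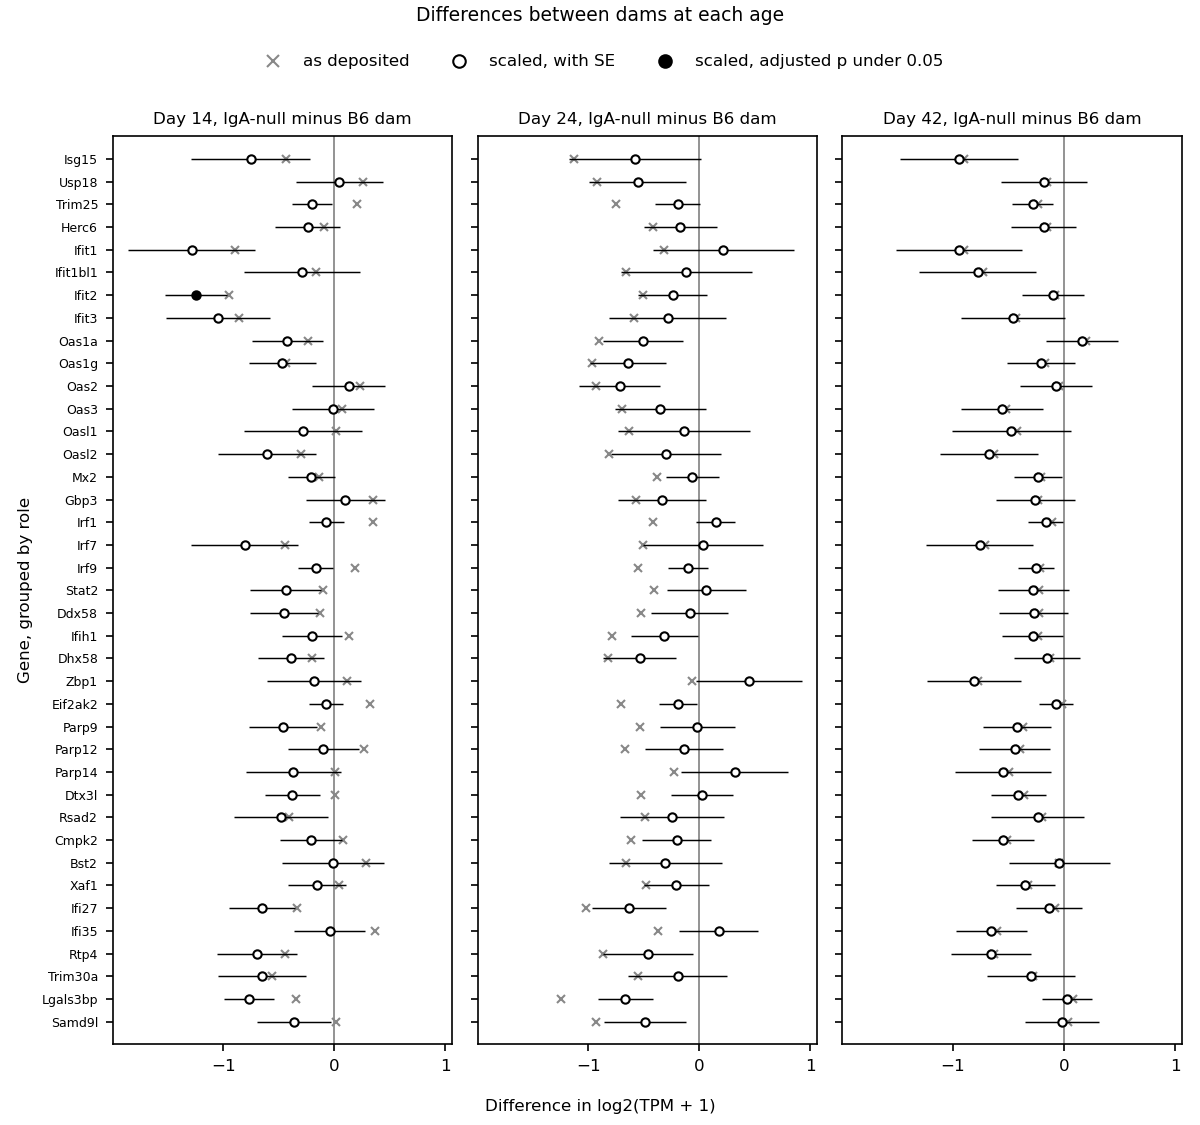
Difference in log2(TPM + 1) between dams, IgA-null minus B6 (horizontal axis), for each of the 39 members (rows) at 3 ages; crosses are as deposited, circles scaled with their SE, and the filled circle passed at an adjusted p under 0.05. Ifit2 at day 14 is the only filled circle, and at day 42 the scaled circles of 37 members are left of 0.

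Whether the dam difference itself changed with age was tested by limma's F test over the 3 ages. No member passed as deposited (6 at an unadjusted p under 0.05), scaled (1) or by limma-voom (1 of 37), where 1.75%, 0 and 0.0447% of all genes passed and 40.3%, 10% and 10.4% had such an unadjusted p. The scaled dam difference of Ifit2 went from -1.25 at day 14 to -0.24 at day 24 and -0.10 at day 42 (adjusted p = 0.43). Without replicate 1 of the IgA-null dam at day 24, 5 members passed as deposited and 0 scaled, and the share of all genes in that fit is not given. A different course of these genes with the 2 dams was therefore not shown for any of the 7 members that rose with the IgA-null dam alone.

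Other genes of the pathway were taken from lists of ligands, receptors, signalling proteins, sensors, regulators and targets. Of 20 interferon genes 10 were listed at 0 in every library, and only Ifnk, a keratinocyte interferon, passed the filter (0.765 to 5.16 TPM). Ifnb1 was above 0 in 1 library (0.116 TPM), as was Ifnl2 (0.0622 TPM) and Ifnl3 (0.30 TPM), each time in replicate 1 of the B6 dam at day 24. Ifng did not exceed 0.0782 TPM. These ligand genes were named after their values were seen.

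All 6 receptor genes were expressed. Ifngr1 gave 9.47 to 31.2 TPM, Ifnar1 1.68 to 7.48 TPM and Ifnlr1, the chain particular to type III interferon, 0.841 to 3.47 TPM. No receptor rose to day 24 with either dam in either scaling. With the B6 dam Ifnar1 was at -0.59 (adjusted p = 0.044), or -0.22 scaled (adjusted p = 0.46), and 1 of 6 receptors fell as deposited. All 6 of 6 fell with the IgA-null dam as deposited, where 82.9% of all genes did, and 0 scaled. Ifnlr1 was at -0.80 (adjusted p = 0.0072), or 0.12 scaled (adjusted p = 0.79) and Ifngr1 at -0.84 (adjusted p = 0.0078), or 0.57 scaled (adjusted p = 0.077).

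Targets outside the 44 also changed between days 14 and 24. Among all genes 1.62% rose as deposited and 7.54% scaled with the B6 dam, and 0.863% and 8.12% with the IgA-null dam. Of 15 interferon-gamma GTPases and presentation genes, 3 rose as deposited and 8 scaled with the B6 dam, and 2 and 12 with the IgA-null dam, where 2 fell as deposited. The list's scaled median difference was 1.02 for the B6 dam and 1.12 for the IgA-null dam, beside -0.00 and -0.04 for all genes. As deposited with the B6 dam, the 29 genes listed summed to 361 and 835 TPM at day 24. At day 14 they summed to 282 to 496 TPM, so 1 library of day 24 lay within that range. Irgm1, a GTPase that acts on vacuoles holding microbes, rose with the B6 dam by 1.10 (adjusted p = 0.0023), or 1.43 scaled (adjusted p = 7.1e-05), as did the peptide transporter Tap1 by 1.09 (adjusted p = 0.014), or 1.45 scaled (adjusted p = 0.0089). Tap1 with the IgA-null dam rose by 0.57 (adjusted p = 0.031), or 1.71 scaled (adjusted p = 0.0018). Of 38 further interferon-stimulated genes, 3 rose and 1 fell as deposited with the B6 dam, and 9 rose and 1 fell scaled, where 6.99% and 6.10% of all genes fell. The IgA-null counts were 2 higher and 19 lower as deposited, and 14 higher and 2 lower scaled, where 82.9% and 8.80% of all genes fell. Ifitm3, which blocks viral fusion, rose by 1.34 (adjusted p = 0.019), or 1.75 scaled (adjusted p = 0.00028) with the B6 dam, and it was still higher at day 42 than at day 14, by 1.65 (adjusted p = 0.0016), or 1.86 scaled (adjusted p = 4.1e-05). For the IgA-null dam the day 42 difference of Ifitm3 was 1.63 (adjusted p = 0.0011), or 2.18 scaled (adjusted p = 1.6e-05). Among 15 negative regulators, Socs3, the feedback inhibitor of cytokine receptors, rose by 1.60 (adjusted p = 0.006), or 1.95 scaled (adjusted p = 0.0073) with the B6 dam. The list of further genes summed to 476 and 785 TPM at day 24 with the B6 dam, against 414 to 596 TPM at day 14. Whether the B6-dam rises outside the members depend on replicate 2 of day 24 was not tested.

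From day 24 to 42 with the IgA-null dam, 8 of the 38 further genes fell scaled and 1 rose, and 2 of the 15 interferon-gamma genes fell, against 1.18% of all genes lower and 1.57% higher. With the B6 dam no gene of these lists passed limma in that step, where 0.0199% of all genes did. Between dams, no gene of the pathway lists passed limma at days 24 or 42 in either scaling. Among all genes 0.0265% passed at day 24 as deposited and 0 scaled, and 0 passed at day 42. At day 14 Trim14 was higher with the IgA-null dam as deposited, at 0.82 (adjusted p = 0.023), or 0.44 scaled (adjusted p = 0.08), as was Irf2bp1, at 1.21 (adjusted p = 0.043), or 0.79 scaled (adjusted p = 0.092). As deposited at that age, 8.68% of all genes passed in either direction and 86.5% had a fitted difference above 0.

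The sorted cells had the epithelial marker: Epcam was at 153 to 500 TPM, while the leukocyte gene Ptprc stayed at 0.0105 to 0.806 TPM. None of 6 leukocyte markers and none of 10 fibroblast and endothelial markers passed the filter. Of 15 T cell and intraepithelial lymphocyte markers 5 did. The summed level of the 15 with the B6 dam was 2.68 to 5.61 TPM at day 14, 6.22 and 15.0 TPM at day 24, and 1.46 to 38.1 TPM at day 42. The IgA-null sums were 1.22 to 2.80, 6.89 to 23.6 and 1.22 to 10.6 TPM. From day 14 to 24 the T cell receptor gene Trac fell with the B6 dam by 1.43 (adjusted p = 0.0045), also scaled (adjusted p = 0.023), and was at -0.45 (adjusted p = 0.11), or -0.06 scaled (adjusted p = 0.9) with the IgA-null dam. The granzyme genes Gzma and Gzmb rose with the IgA-null dam, by 2.40 (adjusted p = 0.0049), or 3.08 scaled (adjusted p = 0.026) and by 1.91 (adjusted p = 0.0027), or 2.55 scaled (adjusted p = 0.016), and Cd7 was at 0.89 (adjusted p = 0.026), or 1.31 scaled (adjusted p = 0.052). None of the 5 rose with the B6 dam. As deposited Gzma was there at 1.56 (adjusted p = 0.21), Gzmb at 1.44 (adjusted p = 0.12) and Cd7 at 0.72 (adjusted p = 0.24). The fifth, Ccl5, was at 0.72 (adjusted p = 0.48) with the B6 dam and 0.71 (adjusted p = 0.27) with the IgA-null dam. In Gzma, Gzmb, Cd7 and Ccl5 both B6-dam libraries of day 24 lay above all those of day 14 in both scalings. Between dams at day 14, Trac was lower with the IgA-null dam by limma as deposited, at -0.97 (adjusted p = 0.028), or -1.04 scaled (adjusted p = 0.062). Among all genes 8.68% passed there as deposited in either direction. Gzma, Gzmb, Cd7 and Ccl5 did not pass between dams at day 14 in either scaling. Trac, Gzma, Gzmb, Cd7 and Ccl5 were named after their values were seen. The defining marker Cd3e was at 0 to 0.873 TPM. The part of lymphocytes in the rise at day 24 was not tested.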

How the data were processed

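RNA was measured in 17 libraries of sorted small-intestinal epithelial cells. The authors deposited 1 table of TPM values, per the file header. Per the submitters' processing notes, mm10, Bowtie2, Subread and DESeq2 were used; versions and roles are not given in the sources used here. Genes at 1 TPM or more in at least 2 libraries were kept, and limma 3.58.1 (R 4.3.3) with a variance trend was fitted to log2(TPM + 1) over all 6 groups, with Benjamini-Hochberg adjustment at 0.05. The fit was tested on simulated data. As alternatives, TPM were divided by median-of-ratios size factors, and limma-voom was run on whole reads recovered from TPM and GENCODE M21 exon lengths, an alternative chosen after seeing the data. Of the values 93.6% came out whole within 0.01 reads, against 4.95% with shuffled lengths. Limma-voom called 16 members from day 14 to 24 with the B6 dam, a count given without the share of all genes. Python 3.11.15, numpy 2.4.6 and pandas 2.3.3 were also used.

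The members and lists were chosen with earlier results of these data known. Members named with a test pass in either scaling, at most the 10 with the smallest p, or are the 3 with the smallest p where none passes. From each pathway list at most 3 genes that pass are named, with Ifnar1, Ifnlr1 and Ifngr1 always included; 1 further item is not reported here. Exceptions, such as Ifit1 and Ifit3 between dams, were chosen after their values were seen.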

Additional observations from a re-analysis of the deposited data

How the results depend on the processing

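Counts are members called at an adjusted p under 0.05 by limma. Apart from scaling and some voom fits, no share of all genes is given, so the counts stand without a background. Scaling gave 1 for the dam effect at day 14, 19 for days 14 to 24 with the B6 dam and 2 for days 14 to 42 with the IgA-null dam. Leaving out mitochondrial and the 50 highest genes gave 2, 18 and 5 for these, and 26 and 23 for days 14 to 24 and 24 to 42 with the IgA-null dam. Voom on recovered reads gave 1, 16 and 2, and 2 for days 14 to 42 with the B6 dam. A pseudocount of 5 gave 1 for the dam effect at day 14 and 2 for days 14 to 42 with the B6 dam. For the dam effect at day 24, a pseudocount of 0.1 gave 2 and a filter at 5 TPM gave 3. No filter gave 3 for days 14 to 42 with the IgA-null dam. Fitting only the compared groups gave 0 for days 14 to 24 with the B6 dam and 14 for days 14 to 42 with the IgA-null dam. The cause of these shifts was not tested.

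Leaving out 1 library gave these ranges, as deposited then scaled. Dam effects gave 0 to 1 and 0 to 1 at day 14, 0 to 8 and 0 to 3 at day 24, and 0 and 0 at day 42. With the B6 dam, days 14 to 24 gave 2 to 24 and 3 to 35, days 24 to 42 gave 0 to 7 and 0 to 34, and days 14 to 42 gave 3 to 6 and 2 to 3. With the IgA-null dam the ranges were 12 to 17 and 11 to 20, 10 to 14 and 0 to 12, and 2 to 15 and 0 to 2. The difference between ages gave 0 to 5 and 0. Where 1 sample remained in a group, it was assumed to vary like the others.

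From day 14 to 24 with the IgA-null dam, signs reversed under scaling, without the highest genes, and under voom: Eif2ak2 0.51, 0.37 and 0.57, Irf9 0.48, 0.41 and 0.60, Irf1 0.66, 0.51 and 0.70, and Trim25 0.74, 0.60 and 0.80, all among the 10 smallest p-values of that step. Lgals3bp, outside those 10, also turned, from -0.70 to 0.74 scaled. The change of the dam difference from day 14 to 24 reversed for Lgals3bp (0.10, 0.15 and 0.11) and Trim25 (0.0063, 0.053 and 0.018).

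Replicate numbers did not pair the samples: same-numbered libraries deviated with r from -0.64 to 0.27 (mean -0.03), and 2 of 17 libraries correlated best with their own number. With the replicate block, 8 members were called for days 14 to 24 with the B6 dam and 8 for days 14 to 42 with the IgA-null dam, and the other counts were as without it. Low members such as Oas2 rest on few reads.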
